A study of Castanea mollissima with 18 samples.

Results

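Callus of Chinese chestnut (Castanea mollissima) was sequenced in 6 libraries, and these parted into 2 trios: callus 1, 2 and 6 (3 libraries) and callus 3, 4 and 5 (3 libraries). They are 6 of the 18 labelled libraries of the series, and the other 12 are of somatic embryos of the same species. No genotype, line, medium, treatment or age is stated for any of them. Their titles hold a run number and short codes that are not explained and are the same within a tissue. The libraries of a tissue thus differ by label number and run number alone. The trios were chosen by how alike the 6 libraries are over all measured genes, so each gene took part in the choice. Differences between the trios are therefore given as descriptions, with no p-value, and the same holds for the comparison of each trio with somatic embryo.

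Callus is a mass of dividing plant cells without organs, kept alive in culture on growth regulators. Somatic embryos are embryos that arise in culture from body cells, commonly by way of callus, and pass through stages like those of a seed embryo. Callus of a single species can differ in texture, colour and in whether it forms embryos, and its transcripts differ along with these traits. The labels name no such trait here. The deposited IDs are not paired with gene names or descriptions, so no function can be given for any gene, the tissue labels could not be checked against marker genes, and IDs are named sparingly.

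Expression is in FPKM, fragments per kilobase of gene model and of the total of mapped fragments, and was compared as log2(FPKM + 1). A fold on this scale understates the change of low genes. Of 33991 IDs, 19890 had at least 1 FPKM in 3 or more of the 6 callus libraries and were compared. Read depth is unknown, since no counts accompany the values. The FPKM of a library summed to 982803 to 984619 in callus 1, 2 and 6, to 980435 to 984719 in callus 3, 4 and 5, and to 950919 to 1067585 in somatic embryo. At 1 FPKM, 19214 to 19371 genes were detected in callus 1, 2 and 6 and 18818 to 18830 in callus 3, 4 and 5, without overlap, against 18555 to 19911 in somatic embryo. In tissue extracts, fewer cells of a type and less RNA per cell cannot be told apart.

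Within a trio the libraries were nearly alike, and between the trios they were not. Spearman's correlation across the compared genes was at least 0.995 among callus 1, 2 and 6 and at least 0.994 among callus 3, 4 and 5, while the 9 pairs between the trios lay between 0.896 and 0.901. The points are genes and not replicates, the libraries share their processing steps, and the values are those that defined the trios. For the median gene, the lowest and highest library of a trio were 0.15 apart (log2) in callus 1, 2 and 6 and 0.16 apart in callus 3, 4 and 5. The trio means of the median gene lay 0.32 apart. A range of 1 or more within a trio was found in 37 genes of callus 1, 2 and 6 and in 146 genes of callus 3, 4 and 5. No pair of callus libraries held the same FPKM in more than 1.45% of the compared genes. Whether libraries of a trio are repeats of the same culture is not stated in the labels.

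A gene was called when the trio means differed by at least 1 (2-fold) and the 3 values of a trio all lay above the 3 of the other. Differences are callus 1, 2 and 6 minus callus 3, 4 and 5. By this rule 1930 genes, 9.70% of the compared genes, were higher in callus 1, 2 and 6, and 1541 genes, 7.75%, were lower there. The median difference was 1.62 in the higher genes and -1.49 in the lower genes, and it was -0.01 over all compared genes. In 77.9% of the 3471 called genes the difference was at least 3 times the larger of the 2 ranges within a trio. With or without that difference, 72.3% of all compared genes had no overlap between the trios. The 2-fold limit set the count more than the overlap did, as 5 genes past the limit overlapped. The limit cut through a continuous distribution: 206 higher genes had a difference of 1 to 1.1, and 209 genes without overlap had one of 0.9 to 1. On the lower side the numbers were 202 and 229. For 63.9% of compared genes the trio means lay within 0.5 of each other.

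**Figure D1:**
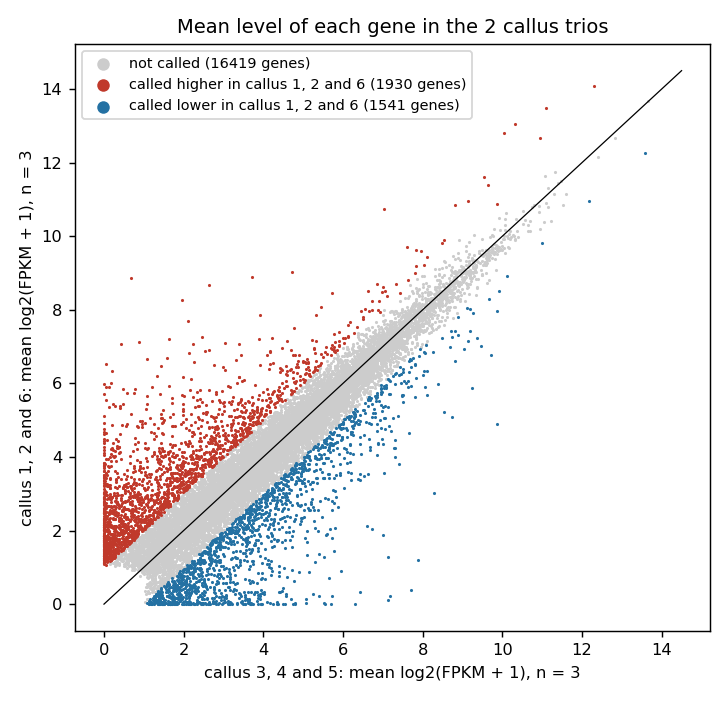
Each point is a gene, with its mean log2(FPKM + 1) over callus 1, 2 and 6 on the vertical axis and over callus 3, 4 and 5 on the horizontal axis (n = 3 libraries each), and the line marks equal levels. The 1930 genes called higher in callus 1, 2 and 6 lie above the line and the 1541 called lower lie below it, and both groups hold genes that are near 0 in the other trio.

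Larger differences were more often in favour of callus 1, 2 and 6. At 4-fold or more, 642 genes were higher and 431 lower without overlap. At 8-fold the numbers were 212 and 153, at 16-fold 73 and 47, and at 64-fold 7 and 6. Without any fold limit the order turned round, with 7072 genes higher and 7313 lower. The higher genes made up 55.6% of the called genes on FPKM as deposited.

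Calls were most frequent among genes of low expression. At a mean under 5 FPKM over the 6 callus libraries, 19.7% of 4836 genes were called higher and 12.8% lower. From 5 to 50 FPKM, 7.57% of 10893 genes were higher and 6.75% lower, and from 50 to 500 FPKM, 3.43% of 3934 genes were higher and 4.55% lower. At 500 FPKM or more, 16 of 227 genes were higher and 7 lower. A gene at 1 FPKM in a single trio passes the filter and had to differ without overlap, though not by 2-fold. Such genes numbered 1616, or 8.12% of those compared: 964 reached 1 FPKM in all of callus 1, 2 and 6 and in none of callus 3, 4 and 5, and 652 the reverse. Of the 964, 787 were called higher, and of the 652, 509 were called lower. When 1 FPKM was required in all 6 callus libraries, which leaves 17330 genes, the excess of higher calls was small, at 959 higher (5.53%) and 927 lower (5.35%).

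The genes called higher and lower took different shares of the summed FPKM in the 2 trios, which follows from the calling rule. The somatic embryo libraries took no part in the calls, so only their shares were free to vary. The 1930 higher genes held 11.9%, 11.5% and 12.1% of the summed FPKM in callus 1, 2 and 6, against 2.77%, 3.33% and 2.79% in callus 3, 4 and 5. The lowest, median and highest share of the same genes in the 12 somatic embryo libraries were 2.27%, 3.36% and 5.10%. Callus 3, 4 and 5 thus fell inside the somatic embryo range and callus 1, 2 and 6 above it. For callus 3, 4 and 5 this placement depended on a few very abundant genes, described next. The 1541 lower genes held 2.70%, 2.47% and 2.45% in callus 1, 2 and 6, against 8.20%, 7.91% and 7.72% in callus 3, 4 and 5. In somatic embryo they held 6.60% at the lowest, 7.63% at the median and 11.1% at the highest, which again took in callus 3, 4 and 5 and not the other trio.

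**Figure D2:**
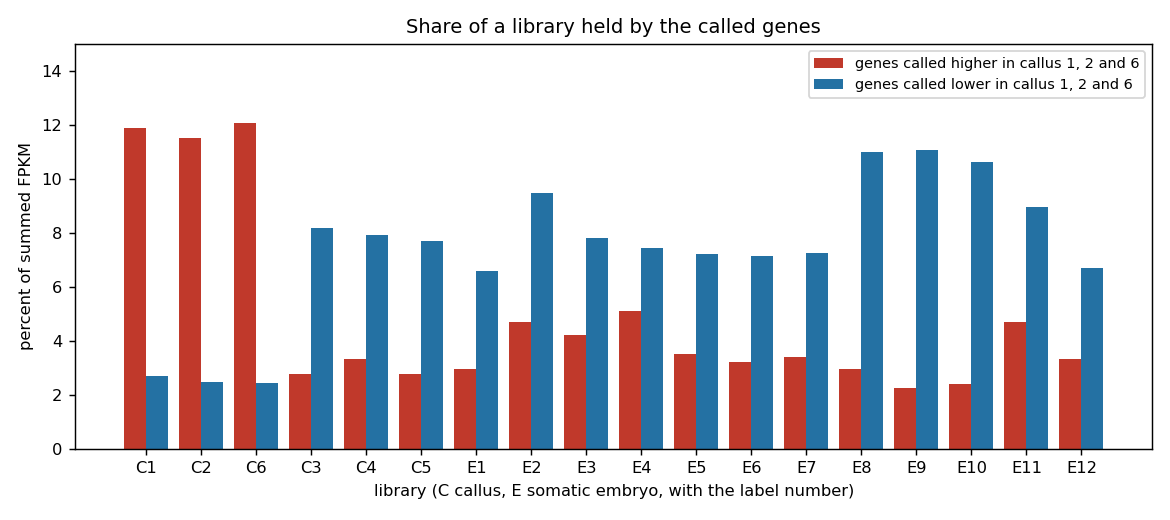
Bars give the percentage of each library's summed FPKM held by the genes called higher (red) and lower (blue) in callus 1, 2 and 6, for the 6 callus libraries (C) and the 12 somatic embryo libraries (E) by their label numbers. The red bars reach 11.5% to 12.1% in C1, C2 and C6 and at most 5.10% in any other library, and the blue bars are lowest in C1, C2 and C6. The contrast between the callus trios follows from how these genes were called.

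A few very abundant genes made up much of the share of the higher genes. The 5 genes with the largest gain in mean FPKM, all of them called higher, held 5.12%, 5.01% and 5.41% of the summed FPKM in callus 1, 2 and 6 and 1.02%, 1.51% and 1.06% in callus 3, 4 and 5. In somatic embryo they held 0.142% to 0.556%. Without these 5, the remaining higher genes held a smaller share in callus 3, 4 and 5 than in any somatic embryo library. In the sum of these 5 genes, callus 3, 4 and 5 therefore lay between callus 1, 2 and 6 and somatic embryo, with callus 4 the highest of its trio. The order differed in the gene of these 5 with the highest somatic embryo mean. Its mean was 2406 FPKM in somatic embryo, 1070 in callus 3, 4 and 5 and 7196 in callus 1, 2 and 6. The others had somatic embryo means of 38.3 to 183 FPKM, each below callus 3, 4 and 5. The 5 genes with the largest loss in mean FPKM, of which 3 were called lower, held 1.22%, 1.11% and 1.04% in callus 1, 2 and 6, and 2.78%, 2.36% and 2.29% in callus 3, 4 and 5. Somatic embryo spanned 0.444% to 3.92% for those 5, a range that covers all 6 callus libraries. The top 10 genes of each library took up 8.31% to 8.76% of its summed FPKM in callus 1, 2 and 6 and 5.91% to 6.28% in callus 3, 4 and 5.

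The genes that led the difference between the trios were all but silent in the other trio. Cm09G01706.gene, the largest rise, had 475, 459 and 453 FPKM in callus 1, 2 and 6 and 0.76, 0.44 and 0.60 FPKM in callus 3, 4 and 5. In the somatic embryo libraries it ran from 0.24 to 39.9 FPKM with a median of 1.56. All 12 somatic embryo libraries lay far below callus 1, 2 and 6, and somatic embryo 10, at 39.9 FPKM, and somatic embryo 8, at 13.1 FPKM, were the highest of them. On the log2 scale 11 of the 12 were nearer to callus 3, 4 and 5, and 1, somatic embryo 10, was nearer to callus 1, 2 and 6. The log2 difference between the trios was 8.18 ± 0.09 (SE, n = 3 libraries each), a ratio of mean FPKM of 771. The SEs of named genes reflect the spread among libraries of a trio, which may be repeats of the same culture. They need not measure the spread between callus cultures.

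Cm03G02184.gene, the next largest rise, had 133, 141 and 129 FPKM in callus 1, 2 and 6 and 0.28, 0.61 and 0.21 FPKM in callus 3, 4 and 5. Somatic embryo ran from 0 to 9.87 FPKM with a median of 0.305, and somatic embryo 10 was again the highest and somatic embryo 8, at 2.33 FPKM, the next. The log2 difference between the trios was 6.64 ± 0.13 (SE, n = 3 each). Both genes thus separated callus 1, 2 and 6 from all other libraries without overlap.

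The largest fall was in Cm06G00304.gene, which had 0.43, 0.07 and 0.46 FPKM in callus 1, 2 and 6 and 212, 203 and 207 FPKM in callus 3, 4 and 5. Somatic embryo ran from 15.1 to 151 FPKM with a median of 51.1. All 12 somatic embryo libraries lay between the trios, above callus 1, 2 and 6 and below callus 3, 4 and 5. On the log2 scale 11 of them were nearer to callus 3, 4 and 5 and 1 to callus 1, 2 and 6. The log2 difference was -7.32 ± 0.15 (SE, n = 3 each).

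Cm11G00108.gene had 0.18, 0 and 0.06 FPKM in callus 1, 2 and 6 and 130, 149 and 139 FPKM in callus 3, 4 and 5, a log2 difference of -7.02 ± 0.09 (SE, n = 3 each). In somatic embryo it ran from 0.78 to 17.1 FPKM with a median of 4.77. Its level was highest in callus 3, 4 and 5, and on the log2 scale 8 of 12 somatic embryo libraries were nearer to callus 1, 2 and 6. It is an exception to the direction taken by most called genes, described next.

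**Figure D3:**
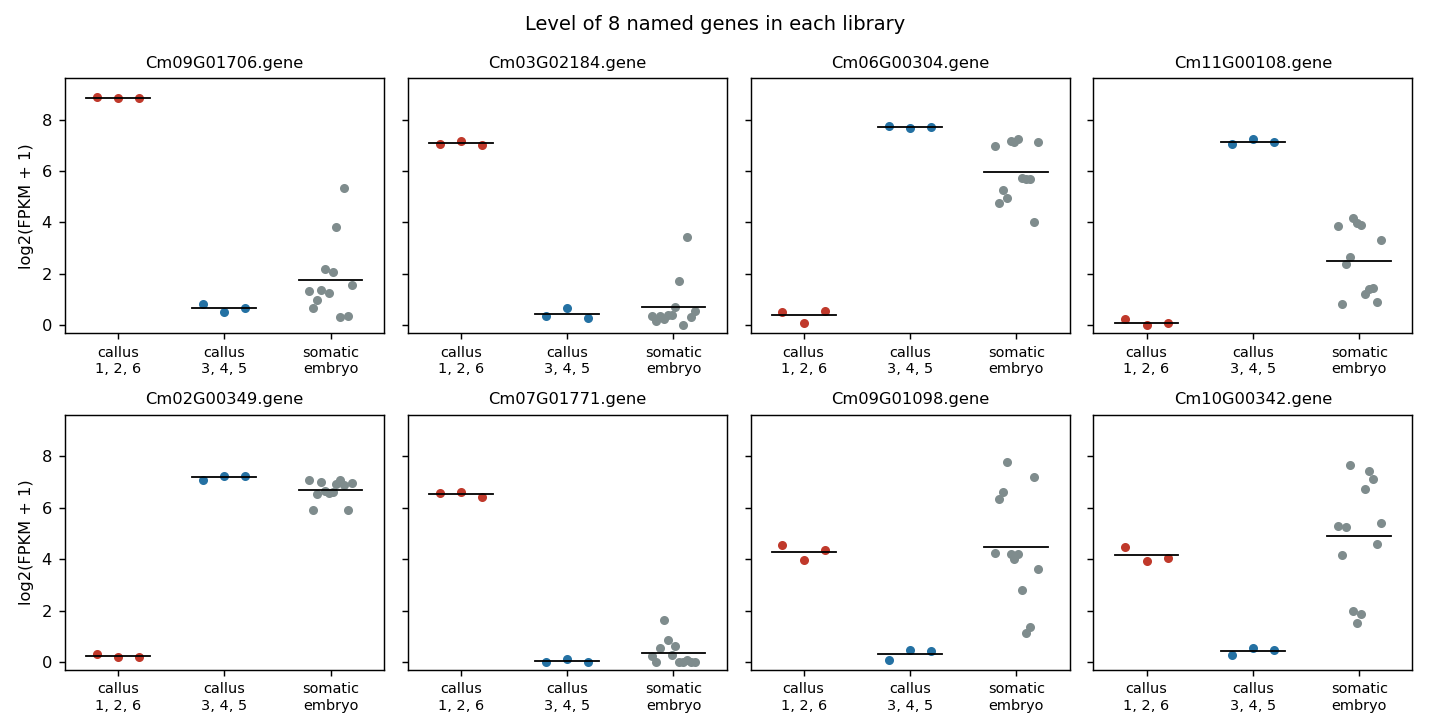
Points are log2(FPKM + 1) in each library for 8 genes, in callus 1, 2 and 6 (n = 3), callus 3, 4 and 5 (n = 3) and somatic embryo (n = 12), with the mean as a line. The upper row holds the 2 largest rises and the 2 largest falls. The lower row holds the genes with the largest gain in nearness to somatic embryo among those not in the upper row. Its first 2 are for callus 3, 4 and 5 and its last 2 for callus 1, 2 and 6.

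Gene by gene, callus 3, 4 and 5 was the nearer trio to somatic embryo. The distance of a trio was taken as the absolute difference between its mean and the mean of the 12 somatic embryo libraries on the log2 scale. The 2 distances differed by at least 1 in favour of callus 1, 2 and 6 in 414 genes, 2.08% of those compared, and in favour of callus 3, 4 and 5 in 2322 genes, 11.7%. Without a margin, callus 1, 2 and 6 was nearer in 6837 genes and callus 3, 4 and 5 in 13053, or 65.6%. With a margin of 2 the numbers were 81 and 675, and with a margin of 3 they were 11 and 227. A margin of 1 or more can arise only where the trio means differ by at least as much. All 414 genes and 2318 of the 2322 were accordingly called genes. The median distance over all compared genes was 0.58 for callus 1, 2 and 6 and 0.39 for callus 3, 4 and 5. Single libraries gave the same picture: 5943 to 6001 genes lay at least 2-fold from the somatic embryo mean in callus 1, 2 and 6, and 3269 to 3393 in callus 3, 4 and 5.

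Both directions of the difference took part. Among the 1930 genes higher in callus 1, 2 and 6, callus 1, 2 and 6 was nearer to somatic embryo in 16.9% and callus 3, 4 and 5 in 83.1%. Among the 1541 lower genes the shares were 22.9% and 77.1%. In the higher genes the median distance to somatic embryo was 1.82 for callus 1, 2 and 6 and 0.46 for callus 3, 4 and 5, and in the lower genes it was 1.57 and 0.62. The lean was present but weaker in the 16419 genes that were not called, where callus 1, 2 and 6 was nearer in 37.5% and callus 3, 4 and 5 in 62.5%.

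The order of the 3 levels was taken gene by gene. In 1557 of the 3471 called genes (44.9%) the somatic embryo mean lay between the trios, closer to callus 1, 2 and 6 in 362 of them and closer to callus 3, 4 and 5 in 1195. In 318 genes (9.16%) somatic embryo lay beyond callus 1, 2 and 6, so that callus 3, 4 and 5 stood farthest away. In 1596 genes (46.0%) it lay beyond callus 3, 4 and 5, so that this trio was intermediate between the other callus and the embryos. The split was similar in the 1930 higher genes, with 161 beyond callus 1, 2 and 6 and 928 beyond callus 3, 4 and 5, and in the 1541 lower genes, with 157 and 668.

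**Figure D4:**
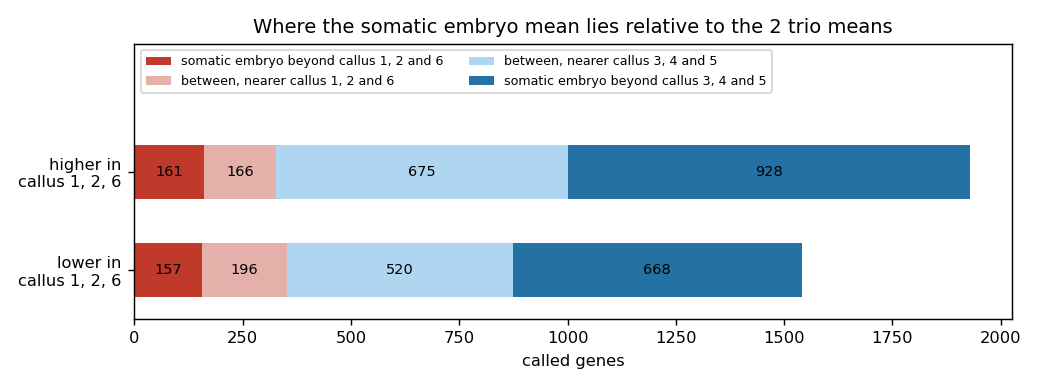
Bars count the called genes by where the mean of the 12 somatic embryo libraries lies relative to the 2 trio means, for the 1930 genes higher and the 1541 genes lower in callus 1, 2 and 6. The 2 blue parts, where callus 3, 4 and 5 is the nearer trio, hold 675 and 928 of the higher genes and 520 and 668 of the lower genes.

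Each of the 12 somatic embryo libraries, taken singly, gave the same direction. By a margin of at least 1, 422 to 630 genes were nearer in callus 1, 2 and 6, against 2135 to 2434 in callus 3, 4 and 5. Without a margin, callus 3, 4 and 5 was the nearer trio in 59.3% of compared genes for somatic embryo 11, the lowest share, and in 66.4% for somatic embryo 12, the highest. Among the called genes the share ran from 73.4% for somatic embryo 4 to 81.1% for somatic embryo 9. The libraries did not agree on every gene. In 175 called genes (5.04%) all 12 were nearer to callus 1, 2 and 6, in 1801 (51.9%) all 12 were nearer to callus 3, 4 and 5, and in 1495 (43.1%) they were divided. The labels do not say whether the 12 come from separate cultures, so 12 of 12 need not be 12 independent readings.

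**Figure D5:**
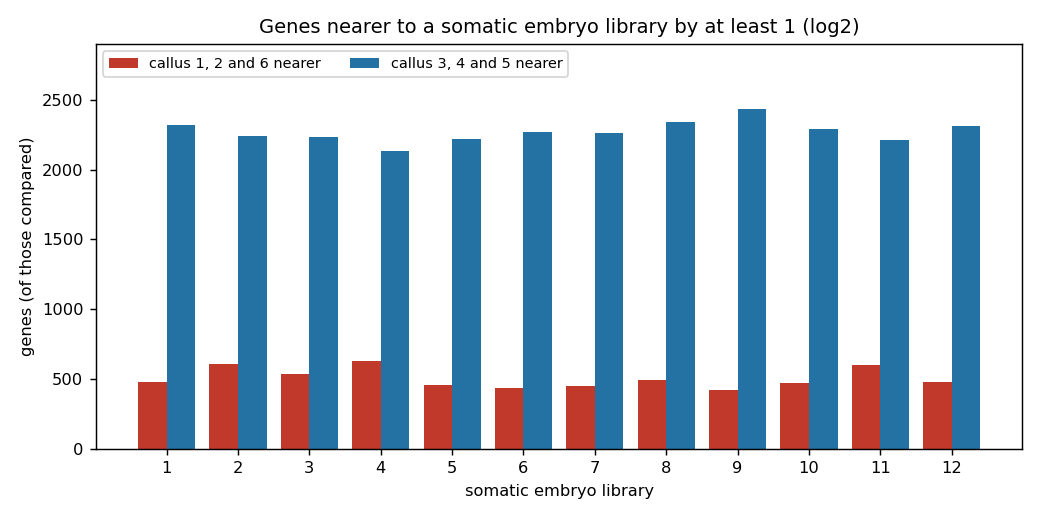
For each somatic embryo library, bars count the genes whose level is nearer by at least 1 (log2) to callus 1, 2 and 6 (red) or to callus 3, 4 and 5 (blue), out of 19890 compared genes. The red bars lie between 422 and 630 and the blue bars between 2135 and 2434 in all 12 libraries.

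The spread among the somatic embryos gave another measure of nearness. All libraries of callus 1, 2 and 6 fell between the lowest and the highest somatic embryo library in 10070 genes, 50.6% of those compared, and all of callus 3, 4 and 5 did so in 12685 genes, 63.8%. In 1551 genes callus 1, 2 and 6 alone was inside that range and in 4166 genes callus 3, 4 and 5 alone. Both were inside in 8519 genes and neither in 5654. Among called genes, 22.4% had callus 1, 2 and 6 inside and 59.2% had callus 3, 4 and 5 inside.

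Genes that set callus apart from every somatic embryo library were likewise more numerous in callus 1, 2 and 6. All 3 libraries of callus 1, 2 and 6 exceeded the highest somatic embryo library at least 2-fold in 1341 genes, 6.74% of those compared. They fell short of the lowest at least 2-fold in 629 genes (3.16%). For callus 3, 4 and 5 the numbers were 420 (2.11%) above and 153 (0.77%) below. Both trios lay above in 288 genes (1.45%) and below in 92 (0.46%). The filter was set on callus, so genes low in callus and on in somatic embryo were not compared. The counts below somatic embryo are thus not on equal terms with those above. Of the 1341 genes above in callus 1, 2 and 6, 455 (33.9%) had callus 3, 4 and 5 inside the somatic embryo range, and of the 629 below, 221 (35.1%) did. Of the 420 genes above in callus 3, 4 and 5, 35 (8.33%) had callus 1, 2 and 6 inside the range, and of the 153 below, 18 (11.8%) did. Over all compared genes, callus 3, 4 and 5 was inside in 63.8% and callus 1, 2 and 6 in 50.6%. Each of these shares was thus below that of its trio over all compared genes. Callus 1, 2 and 6 lay 2-fold above all somatic embryos with callus 3, 4 and 5 2-fold below them in 0 genes, and the reverse held in 2 genes.

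The genes with the largest gain in nearness show the pattern library by library. Beyond the 2 largest rises, already given, the gain for callus 3, 4 and 5 was largest in Cm02G00349.gene. It had 0.23, 0.13 and 0.15 FPKM in callus 1, 2 and 6 and 135, 149 and 148 FPKM in callus 3, 4 and 5, while somatic embryo ran from 59.8 to 135 FPKM with a median of 108. The gene was close to 0 in callus 1, 2 and 6 alone. Its log2 difference between the trios was -6.95 ± 0.06 (SE, n = 3 each), and the distance to somatic embryo was 6.46 for callus 1, 2 and 6 and 0.49 for callus 3, 4 and 5.

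Cm07G01771.gene showed the opposite form, with 94.7, 95.8 and 85.1 FPKM in callus 1, 2 and 6 and 0, 0.09 and 0 FPKM in callus 3, 4 and 5. Somatic embryo ran from 0 to 2.08 FPKM, with 5 of 12 libraries listed at 0 and a median of 0.11. The distance to somatic embryo was 6.18 for callus 1, 2 and 6 and 0.31 for callus 3, 4 and 5. For both genes all 12 somatic embryo libraries were nearer to callus 3, 4 and 5.

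In the other direction the gains were smaller and the somatic embryos more divided. Cm09G01098.gene had 22.7, 14.4 and 19.3 FPKM in callus 1, 2 and 6 and 0.07, 0.39 and 0.33 FPKM in callus 3, 4 and 5. In somatic embryo it ran from 1.18 to 219 FPKM with a median of 17.3. The distance was 0.17 for callus 1, 2 and 6 and 4.13 for callus 3, 4 and 5, and 10 of 12 somatic embryo libraries were nearer to callus 1, 2 and 6. The remaining ones, somatic embryo 9 and 10, stood at 1.18 and 1.55 FPKM.

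Cm10G00342.gene had 21.3, 14.2 and 15.4 FPKM in callus 1, 2 and 6 and 0.20, 0.44 and 0.37 FPKM in callus 3, 4 and 5. Somatic embryo ran from 1.90 to 201 FPKM with a median of 37.5, and 8 of 12 libraries lay above callus 1, 2 and 6. The distance was 0.77 for callus 1, 2 and 6 and 4.50 for callus 3, 4 and 5. Somatic embryo 5, 6 and 7, at 2.96, 1.90 and 2.62 FPKM, were nearer to callus 3, 4 and 5. In these 2 genes, unlike the 2 before, the somatic embryo libraries were spread on both sides of callus 1, 2 and 6.

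The genes on in a single trio differed in what the embryos did with them. Of the 964 genes with at least 1 FPKM in all of callus 1, 2 and 6 and less in all of callus 3, 4 and 5, 489 (50.7%) were under 1 FPKM in all 12 somatic embryo libraries and 47 (4.88%) reached it in all 12. Of the 652 genes with the reverse pattern in callus, 30 (4.60%) were under 1 FPKM in all 12 and 356 (54.6%) reached it in all 12. Many genes on in callus 1, 2 and 6 alone were thus off in the embryos, while many on in callus 3, 4 and 5 alone were on in every embryo library. The latter share was still below the 80.6% found over all compared genes. These genes passed the filter through a single trio, so the counts describe them and not the called genes at large. Over all called genes, 535 of the 1930 higher genes (27.7%) were under 1 FPKM in every somatic embryo library and 582 (30.2%) reached it in all 12. Of the 1541 lower genes, 29 (1.88%) were under it in all and 1205 (78.2%) reached it in all. Over all compared genes the shares were 3.74% and 80.6%. However, 787 of the higher and 509 of the lower genes were themselves on in a single trio. They passed the filter only through the trio where they were high. The shares of the called genes are therefore described and not read against those of all compared genes.

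Some of these genes were listed at exactly 0 in the other trio. In 146 genes all of callus 3, 4 and 5 were listed at 0 while each of callus 1, 2 and 6 reached 1 FPKM, and the median of their means in callus 1, 2 and 6 was 3.19 FPKM. Of these, 121 (82.9%) were under 1 FPKM in all 12 somatic embryo libraries, and 0 reached it in all 12. In 71 genes all of callus 1, 2 and 6 were listed at 0 while each of callus 3, 4 and 5 reached 1 FPKM, with a median of 4.11 FPKM. Of these, 1 was under 1 FPKM in all 12 somatic embryo libraries and 43 (60.6%) reached it in all 12. Over all compared genes 3.74% were under 1 FPKM in all 12 and 80.6% reached it in all 12. The 60.6% was thus lower than the share of all compared genes. Both sets passed the filter only through the trio where they were on. Their shares therefore describe these genes and are no support for the nearness of a trio. Summed over the 71 genes, each somatic embryo library held from 91.6% to 151% of the FPKM found in callus 3, 4 and 5. A value of 0 without counts gives no upper limit, so no fold is given for these genes.

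Among the somatic embryos, the lower genes varied more than the compared genes as a whole. The lowest and highest somatic embryo library differed by a median of 1.36 (log2) over all compared genes, by 1.50 over the genes higher in callus 1, 2 and 6 and by 1.95 over the lower genes. A range of at least 2 was found in 25.1% of all compared genes, in 35.0% of the higher genes and in 48.7% of the lower genes. A range of at least 1 was found in 72.8%, 67.5% and 88.3% in the same order, so for the higher genes the direction depended on the limit.

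Called genes of the same direction often had consecutive IDs. Where the next ID under the same prefix had also been compared, it too was called higher for 24.8% of 1183 higher genes, against 8.70% for all 13351 such pairs. For 963 lower genes the next ID was called lower in 20.1%, against 7.27%. The next ID was called in the opposite direction in 7.02% of the higher and 6.44% of the lower genes. The longest run of consecutive IDs was 11 for higher and 5 for lower genes. Whether consecutive IDs are near-identical copies that share reads was not tested, as no sequence was used. Calls were spread over all 13 ID prefixes, from 6.04% (Cm12) to 17.0% (Cm00, 282 genes) higher and from 6.52% (Cm01) to 13.8% (Cm00) lower.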

How the data were processed

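Total RNA of 18 libraries was made into directional Illumina libraries, per the labels' protocols. Per the submitters' processing notes, FastQC 0.11.9, Trimmomatic and STAR 2.7.10b were used. The authors deposited FPKM with 2 decimals in 1 table. For the quantifier, build and annotation, the sources used here give nothing, and depth is unknown. Of 213 columns, the 18 that match a labelled title were used and 195 were not.

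Values were transformed to log2(FPKM + 1) in Python 3.11.15 (NumPy 2.4.6, pandas 2.3.3), and the calling and distance rules were checked on simulated data. The simulated levels were raised above the real ones and the planted differences exceeded the limit. That check therefore covers the working of the code and not genes of low expression. The trios, lists and rules were chosen with earlier results of these data known, so no test was run and nothing here is independent support. Named genes are the 2 largest rises and falls among called genes, and the 2 further called genes with the largest gain in nearness for each trio. Gene lists and markers were not run, because no ID has a name. Alternatives covered the pseudocount, scaling, filter, fold limit, summary, margin and each library left out.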

Additional observations from a re-analysis of the deposited data

How the results depend on the processing

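The counts of called, nearer and inside-range genes stayed within 1.5 times of the reported value in 174 of 204 recomputations, and the 8 named genes kept their direction in all 96. Callus 3, 4 and 5 was nearer in more genes than callus 1, 2 and 6 under each of the 30 settings run for nearness; the settings on the fold limit do not bear on it. Leaving out 1 library gave 1912 to 1945 higher and 1517 to 1598 lower genes, 400 to 426 genes nearer in callus 1, 2 and 6 and 2295 to 2353 in callus 3, 4 and 5, and 9443 to 10536 and 12052 to 13193 genes inside the somatic embryo range. Somatic embryo then lay beyond callus 1, 2 and 6 in 312 to 328 genes, between the trios in 1539 to 1589 and beyond callus 3, 4 and 5 in 1564 to 1628.

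Of the values that moved further, most did so because the setting admits more or fewer genes. In this order, the counts are for higher and lower genes, for genes nearer in callus 1, 2 and 6 and in callus 3, 4 and 5, and for embryo beyond the first trio, between, and beyond the second. At a mean of at least 5 FPKM they were 976 and 921, 263 and 1251, and 200, 792 and 905. At 4-fold they were 642 and 431 with 67, 603 and 403 for the order, and with no fold limit 7072 and 7313 with 2926, 4017 and 7442. With 1 FPKM required in all 6 callus libraries, a setting added after the data had been seen, they were 959 and 927, 1175 nearer in callus 3, 4 and 5, and 696 between and 963 beyond callus 3, 4 and 5. With 2-fold between the nearest libraries, 192 genes had embryo beyond callus 1, 2 and 6. Without a margin in distance 6837 and 13053 genes were nearer, and with a margin of 2, 81 and 675. With no filter, 20410 and 24198 genes were inside the range. A pseudocount of 0.01 raised the genes nearer in callus 1, 2 and 6 to 636, and the cause was not tested. Higher genes made up 51.1% of calls after quantile normalization and 57.5% after median-of-ratios scaling. No paired analysis was possible because the trios share no replicate number and the results come from no test. Unknown depth sets no limit for values near 0.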

Other observations

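Among the 146 genes listed at 0 in callus 3, 4 and 5 and on in callus 1, 2 and 6, the somatic embryo libraries were unequal. A value above 0 was found for 87 of the 146 genes in somatic embryo 10, 76 in somatic embryo 8 and 66 in somatic embryo 5, against 21 in somatic embryo 12, the fewest, and 30 in somatic embryo 9. At least 1 FPKM was reached by 17 genes in somatic embryo 10, by 7 in somatic embryo 8 and by 1 to 4 in each of the other 10. Summed over these genes, somatic embryo 10 held 6.39% of the mean FPKM of callus 1, 2 and 6, the highest share. Somatic embryo 2, 4 and 8 followed with 3.63%, 3.50% and 3.38%, and somatic embryo 6 had the lowest share, 0.958%. Outside these 146 genes, Cm09G01706.gene had 453 to 475 FPKM in callus 1, 2 and 6 and 39.9 FPKM in somatic embryo 10, and Cm07G01771.gene had 85.1 to 95.8 FPKM in callus 1, 2 and 6 and 0.05 FPKM in somatic embryo 10. These values were picked out after they had been seen, and their source was not tested.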
